A study of Mus musculus with 4 samples.

Results

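The MHC class I pathway of splenic dendritic cells is described here through 10 genes: the heavy chains H2-K1 and H2-D1, the light chain B2m, the peptide transporter genes Tap1 and Tap2, tapasin (Tapbp) and its relative Tapbpl, the chaperones Calr and Pdia3, and the transactivator Nlrc5. They were grouped by function, with earlier results of these data known, and found by matching Ensembl identifiers to symbols. All 10 were among the 17300 genes of the deposited table, and all 10 were among the 11864 tested. RNA was sequenced from dendritic cells sorted from mouse spleen in 2 KO and 2 WT samples, which gave 1 library each. KO samples are titled EKO and carry the genotype KO, and WT samples carry the genotype WT. Strain, age, sex and the targeted allele are not in the labels. Nor is it stated there that the samples are different animals, so p-values measure the spread between these libraries and no more. The KO libraries differed in Y-linked RNA (values given with the other checks), so they are not repeats of 1 RNA sample. For the WT libraries the spread could be technical. The KO columns bear numbers that no sample title has, and the names KO A and KO B stand for them here. Every column name starts with Allo, a term the sources used here leave unexplained.

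Class I molecules show peptides from inside the cell to CD8+ T cells. A heavy chain pairs with B2m in the endoplasmic reticulum, where calreticulin, Pdia3 and tapasin hold it beside the TAP transporter until a peptide cut by the proteasome has been loaded. Dendritic cells also present antigens taken up from outside on class I (cross-presentation), in part by this route. NLRC5 drives transcription of class I genes as CIITA does for class II.

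No gene among the 10 passed an adjusted p of 0.05 (limma, Benjamini-Hochberg over all tested genes), where 6.93% of all tested genes passed. The heavy chains had higher values in both KO libraries than in both WT libraries, Tap2 had lower values, and the other 7 overlapped between the groups. Of all tested genes 28.1% had both KO libraries above both WT libraries and 28.2% below, so 3 of 10 without overlap is no result about these genes. Every 95% interval of a difference lay within a factor of 1.5 in either direction. In the same libraries 10 of 11 class II genes were lower in KO.

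Siglece, the gene of the receptor in the series title, checks the labels. Its values were 8.92 and 8.96 in KO A and KO B, against 10.38 and 10.14 in WT 1 and WT 2 (log2 values). It was 1.32 lower in KO (SE 0.107, adjusted p = 0.0138 in limma). Low values are compressed on this scale, and the mean back-transformed counts were 106 in KO and 763 in WT, a ratio of 0.139. Over all genes 557 were higher (4.69%) and 265 lower (2.23%) in KO, and with quantile normalization 366 and 282. Of 12 conventional dendritic cell markers 7 were lower and 0 higher, and their summed share of back-transformed counts was 0.276% to 0.291% in KO and 0.395% to 0.420% in WT. Red cell markers (7 genes, 3 higher, 0 lower) held 0.118% to 0.179% in KO and 0.00843% to 0.0513% in WT. NK cell markers (7 genes, 6 higher, 0 lower) held 0.0433% to 0.0541% in KO and 0.0246% to 0.0261% in WT, and macrophage markers (7 genes, 3 higher, 0 lower) 0.0228% to 0.0348% in KO and 0.0161% to 0.0190% in WT. Monocyte markers (5 genes, 3 higher, 0 lower) held 0.175% to 0.178% in KO and 0.119% to 0.122% in WT. Of the T and B cell lists 1 gene each was higher, and of the plasmacytoid (5 genes) and neutrophil (7 genes) lists 0 passed. Plasmacytoid markers held 0.102% (KO A) and 0.0545% (KO B), against 0.0572% (WT 1) and 0.0717% (WT 2), and neutrophil markers 0.573% and 0.524% in KO, against 0.535% in WT 1 and 0.195% in WT 2. KO A was thus the high library for the plasmacytoid list and WT 2 the low one for the neutrophil list. No marker of these lists was at the lowest value of the table in any library. Nucleated cells of most types carry class I, and the part of these markers in the class I values was not tested. In bulk RNA fewer cells of a type and less RNA per cell cannot be told apart. KO A was the lowest library for 3 Y-linked genes. Ddx3y was at 8.74 and Eif2s3y at 8.54 in KO A, against 11.82 to 12.13 and 11.12 to 11.24 in the other libraries, while Kdm5d was at 9.98 in KO A and at 11.34 to 11.74 in the others. Its part in the class I values was not tested.

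Promoter sequence was at hand for 7 of the 10 genes (RefSeq, GRCm38.p6, an older build than the GRCm39 named by the submitters), and not for Tap2, Tapbpl and Nlrc5. The 250 bases before each start were searched on both strands. The stretches printed here were picked because the heavy chain genes, whose KO values were highest relative to WT among the 10, share one arrangement of letters. Part of it recurs in B2m. A link of these letters to the KO values was not tested. Capitals mark in H2-K1 and H2-D1 an NF-kB-like GGGNNTTCC, an IRF-like GAANNGAAA (here on the other strand), TGACG (the core of a cyclic AMP response element) and CCAAT (read here as ATTGG). In B2m they mark a longer IRF-like motif (GAAA, any 2 bases, GAAA), TGACG and ATTGG.
H2-K1, chr17:34000348-34000470, minus strand: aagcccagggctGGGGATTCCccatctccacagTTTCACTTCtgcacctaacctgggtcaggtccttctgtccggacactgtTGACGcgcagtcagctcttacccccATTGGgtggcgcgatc
H2-D1, chr17:35262911-35263034, plus strand: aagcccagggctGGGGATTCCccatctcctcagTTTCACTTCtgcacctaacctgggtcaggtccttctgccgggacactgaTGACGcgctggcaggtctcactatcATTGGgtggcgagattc
B2m, chr2:122147536-122147650, plus strand: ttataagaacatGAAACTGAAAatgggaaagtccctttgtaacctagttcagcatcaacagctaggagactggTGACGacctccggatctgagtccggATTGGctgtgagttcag

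The 2 heavy chain stretches were identical at 111 of 124 aligned positions (89.5%). In both, the NF-kB-like and IRF-like matches started 21 bases apart, the IRF-like match and TGACG 49 bases apart, and TGACG and ATTGG 25 bases apart. The last spacing was 25 bases in B2m as well. Singly these motifs are common: among 32851 promoters of the same length GGGNNTTCC was in 4.98%, GAANNGAAA in 6.31%, the longer IRF-like motif in 2.98%, TGACG in 17.8% and CCAAT in 33.8%. All of GGGNNTTCC, GAANNGAAA, TGACG and CCAAT in this order, on either strand, were in 5 promoters, which belong to H2-K1, H2-D1, H2-Q4 and H2-Q7. In H2-Q7 the same spacings, in the order given above, were 20, 49 and 24 bases, close to those of H2-K1 and H2-D1. A search for exactly 25 bases therefore leaves H2-Q7 out. H2-Q6 had the NF-kB-like and IRF-like matches, 173 and 152 bases before the start, but not the cyclic AMP core. H2-Q4 did not have the arrangement of H2-K1. Its ATTGG lay before TGACG (79 and 73 bases before the start), and a CCAAT on the other strand, at 55, completed the order. TGACG and ATTGG with starts 25 bases apart were in 30 promoters (0.0913%), among them those of H2-K1, H2-D1 and B2m, and in 1 of 18 nonclassical genes (H2-M3), 0 of 13 peptide supply genes and 0 of 8 class II genes with a promoter sequence. These combined searches were chosen after the sequences were seen. Calr instead held a match to the ER stress response element (CCAAT, any 9 bases, CCACG), which was in 37 of 32851 promoters. It is shown because Calr and Pdia3 act with other chaperones of the endoplasmic reticulum, and its capitals mark the match on the other strand, which includes a CCAAT.
Calr, chr8:84847063-84847105, minus strand: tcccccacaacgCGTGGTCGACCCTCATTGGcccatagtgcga

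H2-K1 (ENSMUSG00000061232), 1 of the 2 classical heavy chains, had log2 values of 15.47 (KO A) and 15.34 (KO B), against 15.03 (WT 1) and 15.16 (WT 2). Both KO libraries lay above both WT libraries, as in 28.1% of all tested genes. The KO mean was 15.40 ± 0.099 and the WT mean 15.10 ± 0.088 (SD, 2 libraries each). The difference was 0.31 (SE 0.0959, 95% interval 0.08 to 0.54, adjusted p = 0.110 in limma). In back-transformed counts this was 42911 in KO and 34531 in WT, a ratio of 1.24. With quantile normalization the difference was 0.14 (adjusted p = 0.262).

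H2-D1 (ENSMUSG00000073411), the other classical heavy chain, showed the same order. It stood at 15.68 and 15.59 in KO A and KO B, against 15.41 and 15.38 in WT 1 and WT 2. The difference was 0.25 (SE 0.0861, 95% interval 0.04 to 0.45, adjusted p = 0.144 in limma), with 50522 back-transformed counts in KO and 42513 in WT. Quantile normalization brought it to 0.05 (adjusted p = 0.597). The size of both heavy chain differences thus depended on the normalization. Heavy chain genes also share sequence. Of the 31-base words of the principal H2-K1 transcript 16.9% occurred in H2-D1 transcripts, and of those of H2-D1 12.9% in H2-K1 transcripts. In transcripts of any other gene it was 23.3% for H2-K1 and 27.5% for H2-D1, the latter spread over 704 genes. The authors' counting could thus have split heavy chain reads. The heavy chain genes are polymorphic, and strain and haplotype are not in the labels. Their part in the heavy chain values was not tested.

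B2m (ENSMUSG00000060802), the light chain that every class I heavy chain needs, did not follow them in both KO libraries. It was at 15.13 (KO A) and 14.84 (KO B), against 14.92 (WT 1) and 14.85 (WT 2). KO A was the highest and KO B the lowest library, and the groups overlapped. The difference of 0.10 (SE 0.114, 95% interval -0.17 to 0.38, adjusted p = 0.635 in limma) was -0.042 without KO A. None of the 31-base words of B2m occurred in another gene's transcripts.

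**Figure D1:**
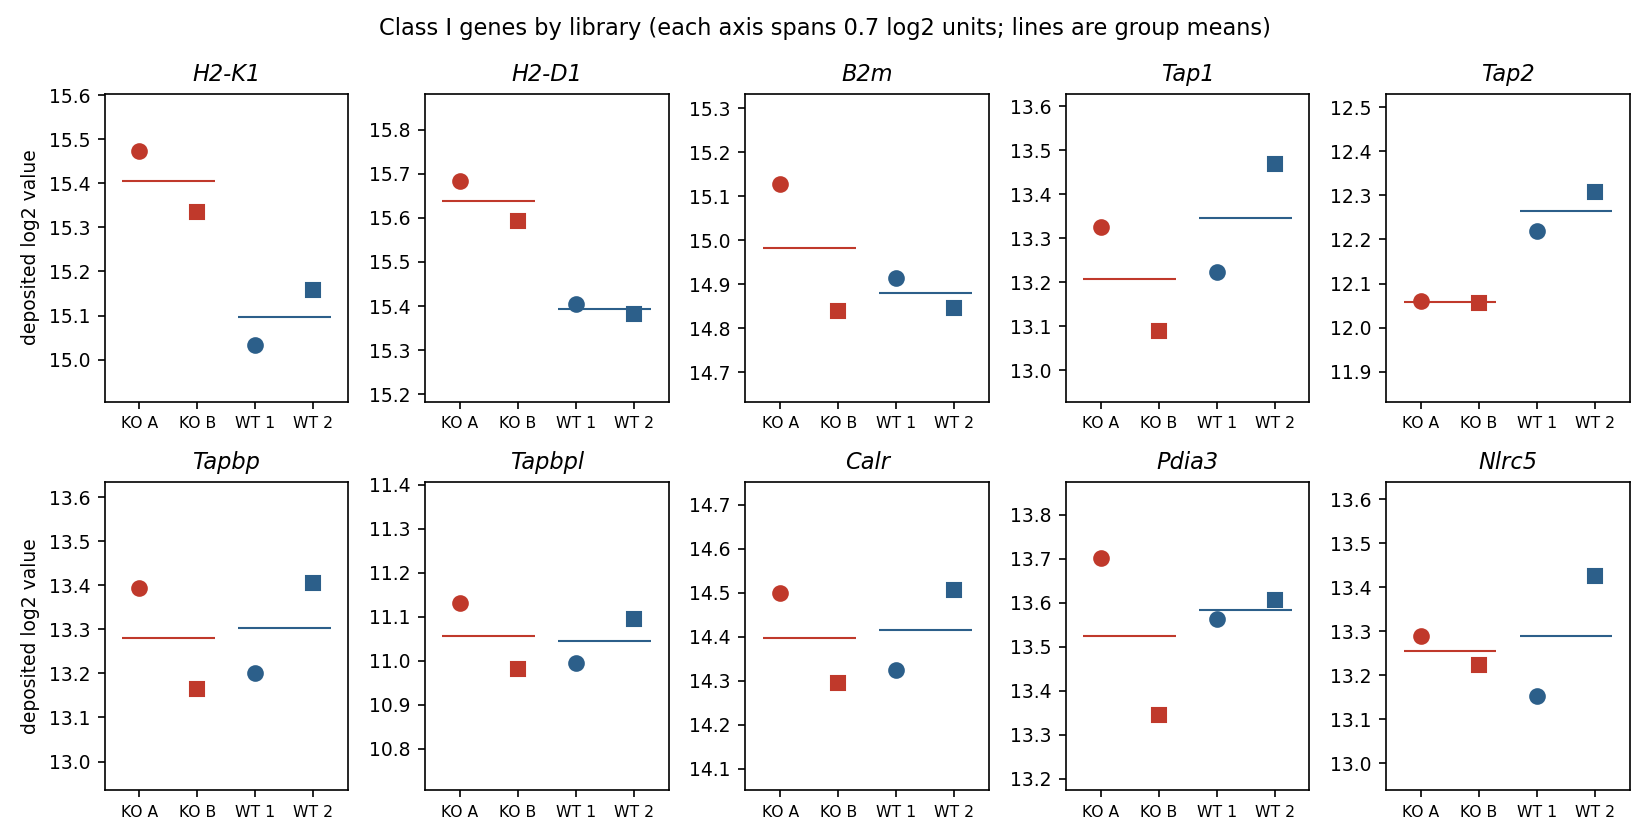
Deposited log2 values of the 10 class I genes by library, KO in red to the left and WT in blue to the right, with lines at the group means (n = 2 each). Both KO points lie above both WT points for H2-K1 and H2-D1 and below them for Tap2, and the groups overlap for the other 7.

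Tap1 (ENSMUSG00000037321) encodes 1 of the 2 chains of the transporter that moves peptides into the endoplasmic reticulum. Its values were 13.32 (KO A) and 13.09 (KO B), against 13.22 (WT 1) and 13.47 (WT 2), and the groups overlapped. The difference was -0.14 (SE 0.121, 95% interval -0.43 to 0.15, adjusted p = 0.525 in limma). Tap1 lies beside the immunoproteasome gene Psmb9, which is on the opposite strand. An overlap of their transcripts was not tested, and the sources used here do not state whether counting used strand. Psmb9 was at 11.73 and 11.51 in KO, against 11.84 and 11.80 in WT (difference -0.20, adjusted p = 0.269 in limma).

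Tap2 (ENSMUSG00000024339), the partner chain, was the 1 gene of the 10 whose KO libraries both lay below both WT libraries, as 28.2% of all tested genes did. It was at 12.06 (KO A) and 12.05 (KO B), against 12.22 (WT 1) and 12.31 (WT 2). The difference did not pass (-0.21, SE 0.0801, 95% interval -0.40 to -0.014, adjusted p = 0.175 in limma). Its ratio of mean back-transformed counts, KO over WT, was 0.851. The KO libraries differed by 0.0045, less than in any of the other 9 genes.

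Tapbp (ENSMUSG00000024308), tapasin, bridges the heavy chain and TAP. It stood at 13.39 (KO A) and 13.16 (KO B), against 13.20 (WT 1) and 13.41 (WT 2), a difference of -0.023 (95% interval -0.30 to 0.25, adjusted p = 0.930 in limma). Tapbpl (ENSMUSG00000038213), the tapasin relative TAPBPR that edits the peptides of class I molecules, was at 11.132 (KO A) and 10.980 (KO B), against 10.996 (WT 1) and 11.095 (WT 2). Its difference of 0.011 (95% interval -0.22 to 0.24, adjusted p = 0.964 in limma) was the smallest of the 10. In both genes KO A and WT 2 were the high libraries and KO B and WT 1 the low ones.

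Calr (ENSMUSG00000003814), a lectin chaperone that binds newly made glycoproteins, was at 14.50 (KO A) and 14.30 (KO B), against 14.33 (WT 1) and 14.51 (WT 2). The difference was -0.019 (95% interval -0.28 to 0.24, adjusted p = 0.941 in limma). Pdia3 (ENSMUSG00000027248), the disulfide isomerase ERp57, was at 13.70 (KO A) and 13.35 (KO B), against 13.56 (WT 1) and 13.61 (WT 2) (difference -0.060, 95% interval -0.36 to 0.24, adjusted p = 0.815 in limma). Its KO libraries lay 0.36 apart, the widest gap within a group among the 10 genes, and WT lay between them.

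Nlrc5 (ENSMUSG00000074151), the class I transactivator, was at 13.29 (KO A) and 13.22 (KO B), against 13.15 (WT 1) and 13.43 (WT 2). Both KO values lay between the WT values, and the difference was -0.033 (SE 0.108, 95% interval -0.29 to 0.23, adjusted p = 0.888 in limma). Ciita, its class II counterpart, was at 14.23 and 14.13 in KO, against 15.11 and 15.20 in WT, 0.98 lower in KO (SE 0.0866, adjusted p = 0.0147 in limma). The log2 ratio of Nlrc5 to Ciita within a library was -0.94 and -0.91 in KO A and KO B, against -1.96 and -1.78 in WT 1 and WT 2. It was 0.94 higher in KO, with no overlap. The exact two-sided permutation p was 0.333, the smallest that 2 against 2 samples allow. Leaving out each library in turn gave 0.85 to 1.04.

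**Figure D2:**
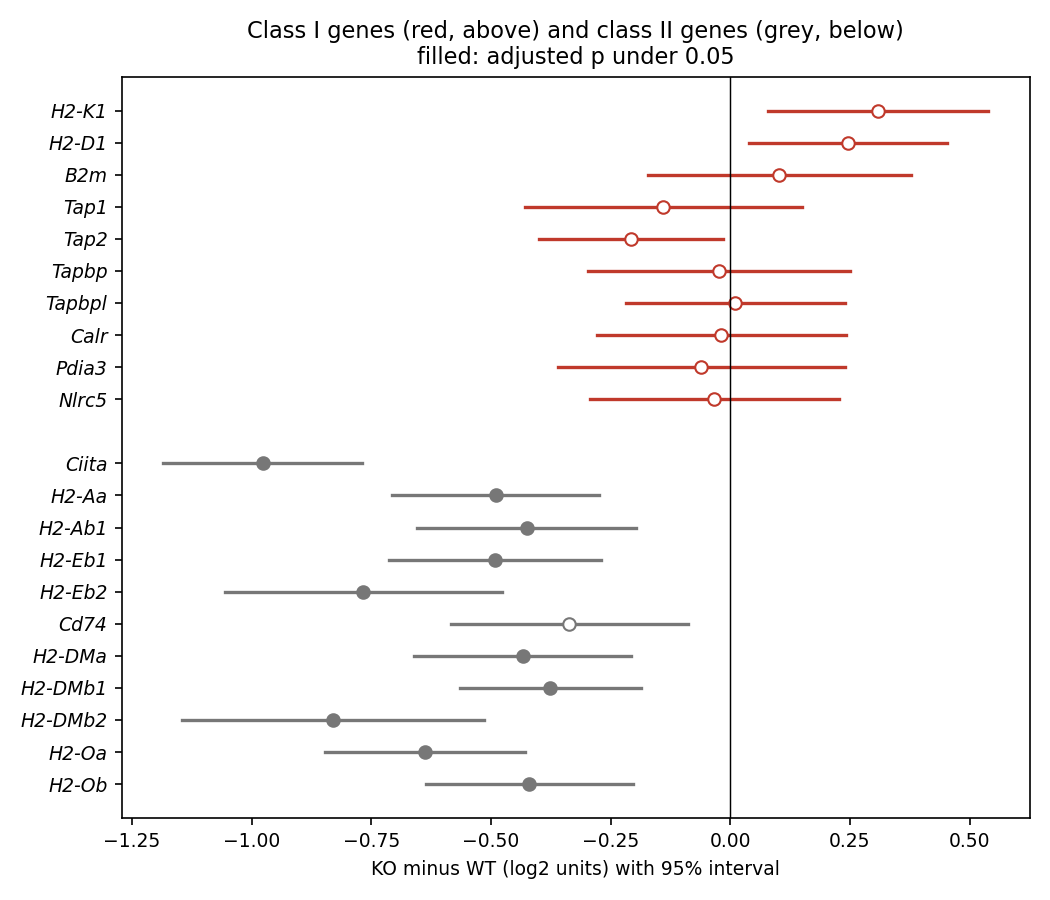
KO minus WT in log2 units with 95% intervals from limma, class I genes in red and 11 class II genes in grey, filled where the adjusted p was under 0.05. The class I points lie between -0.21 and 0.31 with none filled, and the class II points between -0.98 and -0.34 with 10 of 11 filled.

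The class II list (Ciita, the chains, Cd74 and the H2-DM and H2-O subunits) shows what the same 4 libraries gave for the neighbouring pathway. Of 11 genes 10 were lower and 1 (Cd74) did not pass, with a median of -0.49 and 95% intervals all below 0, against medians of -0.021 for the 10 class I genes and near 0 for all tested genes. Without KO A, and without KO B, 0 of the 11 passed, and without WT 1 and without WT 2 it was 5 and 4. H2-Aa, the class II alpha chain, was at 15.72 and 15.63 in KO, against 16.13 and 16.19 in WT, while H2-K1 in the same libraries had the opposite order of groups. Of the 12 conventional dendritic cell markers 7 were lower in KO and 0 higher, with a median of -0.54 over that list. The part of these markers in the class II values, and in the ratio of Nlrc5 to Ciita, was not tested.

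The gap between KO A and KO B exceeded the difference of the group means in 7 of the 10 genes, H2-K1, H2-D1 and Tap2 being the exceptions, and in 43.7% of all tested genes. The gap between the WT libraries exceeded it in 5 of 10 (Tap1, Tapbp, Tapbpl, Calr and Nlrc5) and in 39.3% of all tested genes. The median absolute gap was 0.18 between the KO libraries and 0.11 between the WT libraries, and the median absolute difference between groups was 0.081. KO A was above KO B in 10 of 10 genes and WT 2 above WT 1 in 8 of 10, the exceptions being H2-D1 and B2m. Of all 11864 tested genes 5976 had KO A above KO B and 6347 had WT 2 above WT 1. Both held in 8 of the 10 class I genes (80%), against 27.9% of all tested genes. This order was picked after the values of the 10 genes were seen. The same order stood in 22 of 25 genes of endoplasmic reticulum folding (88%), in 20 of 24 interferon-stimulated genes (83.3%) and in 7 of 11 class II genes. In the peptide supply list it stood in 11 of 16 genes, in the nonclassical list in 9 of 15 and in the class I transcription list in 11 of 27 (40.7%). All 5 plasmacytoid dendritic cell markers had this order, Siglech for example at 13.44 and 12.39 in KO A and KO B, against 12.40 and 12.70 in WT 1 and WT 2. So had 4 of 5 monocyte markers, 6 of 12 conventional dendritic cell markers, 1 of 7 NK cell and 1 of 6 T cell markers, and 0 of the macrophage, neutrophil, B cell and red cell lists. The part of these cells in the order was not tested, and no label marks a batch that pairs KO A with WT 2.

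**Figure D3:**
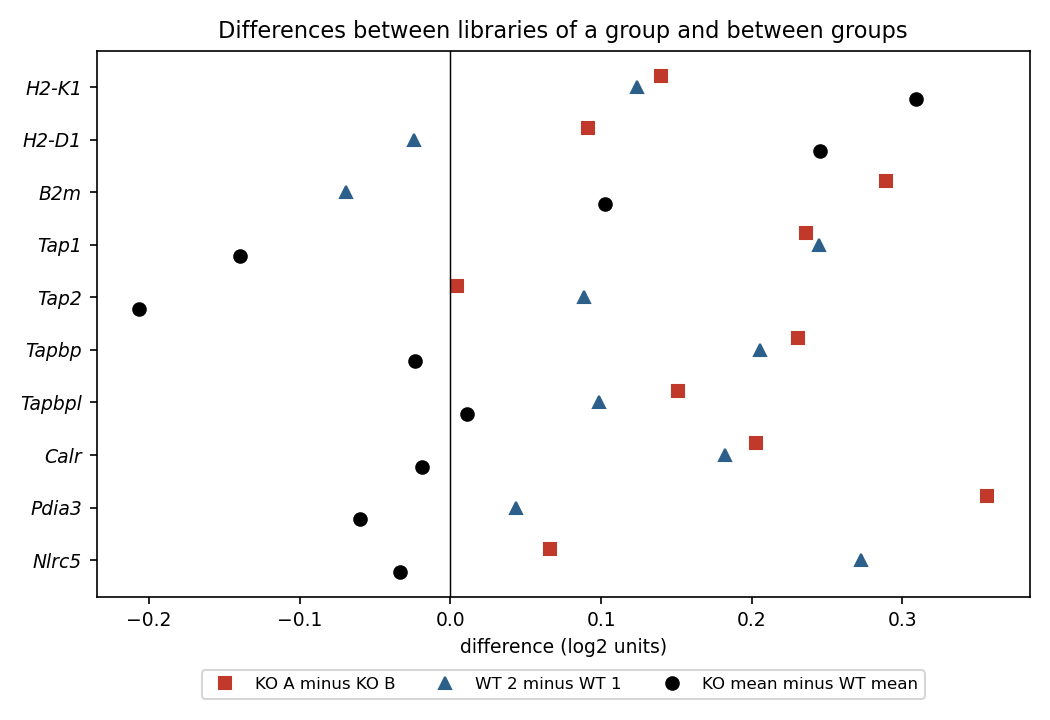
For each class I gene, KO A minus KO B (red squares), WT 2 minus WT 1 (blue triangles) and the KO mean minus the WT mean (black circles), in log2 units. The red squares run up to 0.36, and the black circles lie nearer to 0 than the red squares except for H2-K1, H2-D1 and Tap2.

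The ratios are differences of the deposited values, which are compressed when low. With log2 of the count plus 1 instead, Tap2 to Tap1 differed between the groups by -0.084 rather than -0.067. Ratios within a library thus cancel a scaling factor between libraries only approximately. Quantile normalization is not such a factor, and the ratios were not recomputed with it. Under it the KO minus WT differences were 0.14 for H2-K1, 0.05 for H2-D1 and 0.11 for B2m. H2-K1 then rose little more than B2m, and H2-D1 less. The log2 ratio of H2-K1 to B2m was 0.35 (KO A) and 0.50 (KO B), against 0.12 (WT 1) and 0.31 (WT 2). It did not overlap between the groups and was 0.21 higher in KO (exact permutation p = 0.333). Without WT 1 the difference was 0.11 and without KO B 0.13, and leaving out each library gave 0.11 to 0.30. H2-D1 to B2m was 0.56 and 0.75 in KO A and KO B, against 0.49 and 0.54 in WT 1 and WT 2, 0.14 higher in KO (exact permutation p = 0.333), and the difference was 0.044 without KO B and 0.24 without KO A. H2-D1 to H2-K1 was 0.21 and 0.26 in KO, against 0.37 and 0.22 in WT, and overlapped (exact permutation p = 0.667). Tapbp to Tap1 was 0.071 and 0.076 in KO, against -0.024 and -0.063 in WT, without overlap and 0.12 higher in KO (exact permutation p = 0.333). Tap2 to Tap1, Tapbpl to Tapbp and Pdia3 to Calr overlapped between the groups, with differences of -0.067, 0.034 and -0.041 (exact permutation p = 0.667 for each).

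**Figure D4:**
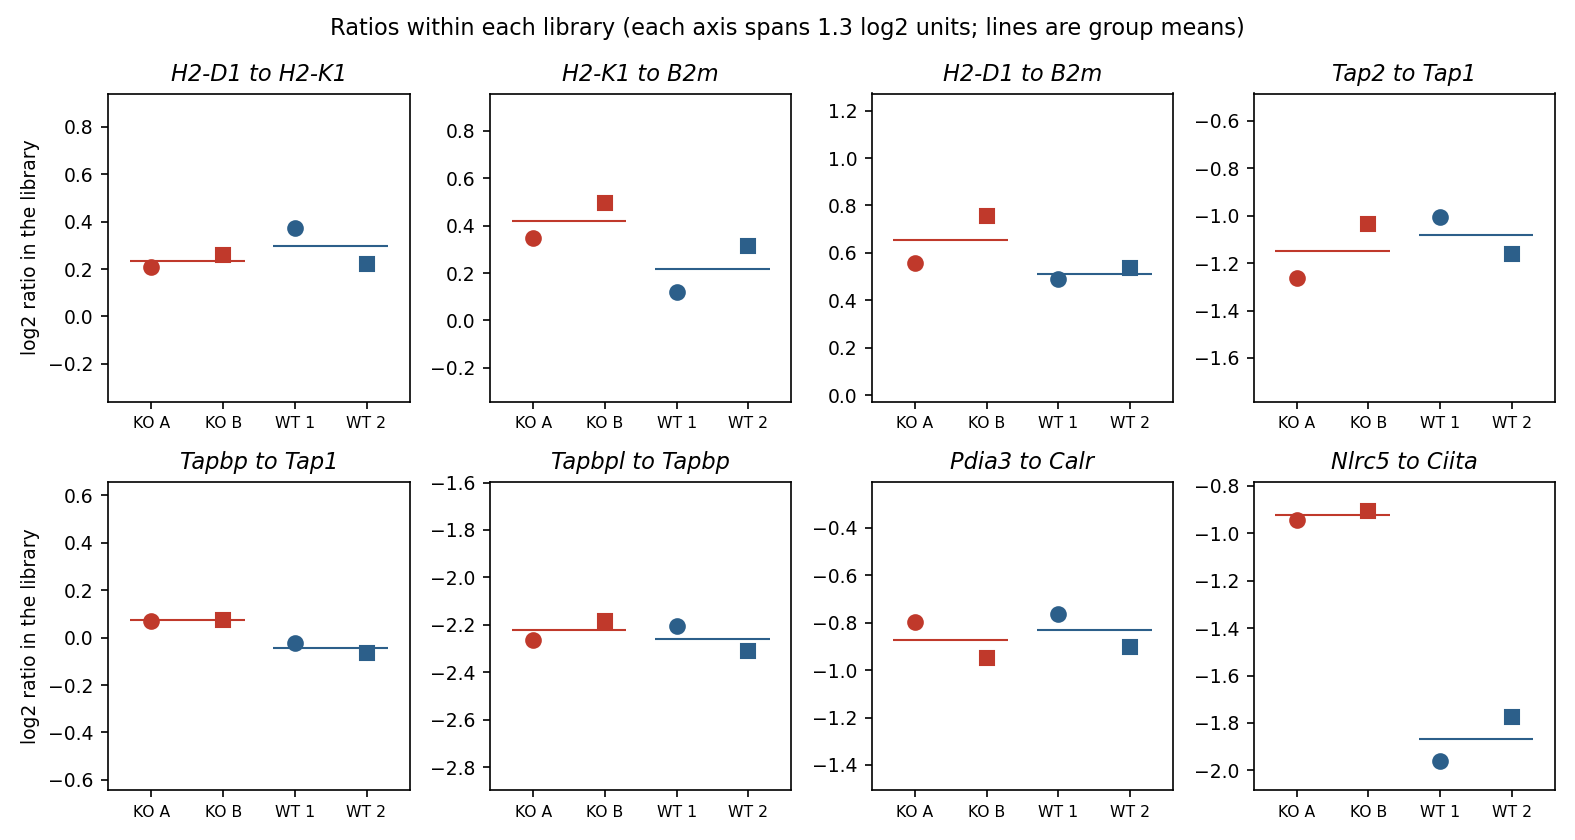
Log2 ratios of pairs of genes within each library, KO in red to the left and WT in blue to the right, with lines at the group means (n = 2 each). Nlrc5 to Ciita differs by 0.94 between the groups, the other ratios by 0.21 or less in either direction.

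Levels between genes were compared as back-transformed counts per kilobase of the principal transcript. B2m was the highest, with 41015 and 33464 in KO A and KO B, against 35318 and 33630 in WT 1 and WT 2. H2-K1 followed with 27802 and 25208 in KO, against 20399 and 22258 in WT, and H2-D1 with 24804 and 23266 in KO, against 20398 and 20052 in WT. The heavy chains could not be ordered in WT 1, where they differed by less than 1 count per kilobase. Calr was next, with means of 9668 in KO and 9794 in WT, then Pdia3 with 4098 in KO and 4247 in WT. Tapbp (3264 in KO and 3317 in WT) and Tap1 (3036 in KO and 3364 in WT) overlapped in range in both groups. Nlrc5 (1223 in KO and 1258 in WT) and Tap2 (1090 in KO and 1281 in WT) overlapped in WT, and Tapbpl was the lowest with 697 in KO and 690 in WT.

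The rest of the pathway was read from 4 lists of 95 genes, of which 83 were tested. Of these 1 was higher in KO, 2 were lower and 80 did not pass, with a median of 0.034. That is 3.61%, against 6.93% of all tested genes. All 3 calls were in the list of class I transcription (3 of 27, 11.1%). Socs3, an inhibitor of cytokine receptor signalling, was at 11.67 and 11.82 in KO, against 10.64 and 11.03 in WT, and rose by 0.91 (SE 0.139, adjusted p = 0.0233 in limma). Jak2, a kinase of cytokine receptors, was at 13.25 and 13.35 in KO, against 13.81 and 13.75 in WT, and fell by 0.48 (SE 0.0823, adjusted p = 0.0279 in limma). Rfx5, a subunit of the RFX complex that binds both class I and class II promoters, was at 10.94 and 11.16 in KO, against 11.63 and 11.53 in WT, and fell by 0.54 (SE 0.104, adjusted p = 0.0371 in limma). The other RFX subunits, Rfxap and Rfxank, differed by 0.072 and -0.12 (adjusted p = 0.660 and 0.636 in limma). Irf8, a transcription factor of dendritic cell development and the most abundant of the list without a call, differed by -0.12 (adjusted p = 0.757 in limma) and overlapped. The count over the 4 lists was 0 without KO A or without KO B, 1 without WT 1 and 7 without WT 2.

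Of 26 nonclassical class I and class I-like genes 15 were tested, and 0 rose, 0 fell and 15 did not pass (median 0.013). The share that passed over all tested genes was 6.93%. H2-Q7, a nonclassical heavy chain of the Qa region, was at 13.89 (KO A) and 13.60 (KO B), against 13.22 (WT 1) and 13.47 (WT 2) (difference 0.40, 95% interval 0.09 to 0.71, adjusted p = 0.121 in limma). H2-Q4 and H2-Q6, which were picked on their values, differed by 0.24 and 0.35 (adjusted p = 0.168 and 0.0585 in limma), also without overlap. H2-T23, which encodes Qa-1, differed by 0.013 (adjusted p = 0.965 in limma). The KO libraries lay above WT in 5 of the 15 and below in 4, where 28.1% and 28.2% of all tested genes did. Of the 31-base words of H2-Q4, H2-Q6 and H2-Q7 between 43.4% and 52.6% occurred in other genes, more than for H2-K1 or H2-D1, so these values are uncertain.

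Of 16 genes of peptide supply 0 rose, 0 fell and 16 did not pass (median 0.013), where 6.93% of all tested genes passed. Among the immunoproteasome genes, which cut the peptides, Psmb8 was at 13.33 and 13.03 in KO, against 13.27 and 13.41 in WT (difference -0.16, adjusted p = 0.444 in limma), and Psmb10 differed by 0.048 (adjusted p = 0.830 in limma); these and Psmb9 were chosen after their values were seen. Hsp90ab1 and Hsp90aa1, the most abundant genes of the list, differed by 0.15 and 0.65 (adjusted p = 0.667 and 0.218 in limma). Hsp90aa1 was at 14.96 and 14.34 in KO, against 13.63 and 14.38 in WT, so KO A was the highest and WT 1 the lowest library.

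All 25 genes of endoplasmic reticulum folding were tested, and 0 rose, 0 fell and 25 did not pass (median 0.069). Among all tested genes 6.93% passed. Hspa5, the chaperone BiP, was at 14.40 and 14.12 in KO, against 13.47 and 14.10 in WT (difference 0.48, 95% interval -0.02 to 0.97, adjusted p = 0.217 in limma), with WT 1 far below the other libraries. Hsp90b1 differed by 0.12 (adjusted p = 0.708 in limma). Calr and Pdia3 did not show the low WT 1 value of Hspa5. Among the 24 interferon-stimulated genes with a test 1 passed as higher, 0 as lower and 23 in neither direction (median 0.10). Over all tested genes 4.69% passed as higher and 2.23% as lower, so 1 of 24 is no result about this list. The higher one was Rsad2, an antiviral enzyme, at 11.25 and 10.92 in KO, against 9.91 and 10.16 in WT (difference 1.05, adjusted p = 0.0199 in limma). Irf7 and Mx1, the most abundant of the others, differed by 0.24 and -0.34 (adjusted p = 0.465 and 0.121 in limma). Without KO A or without KO B 0 of this list passed, and without WT 2 it was 3.

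**Figure D5:**
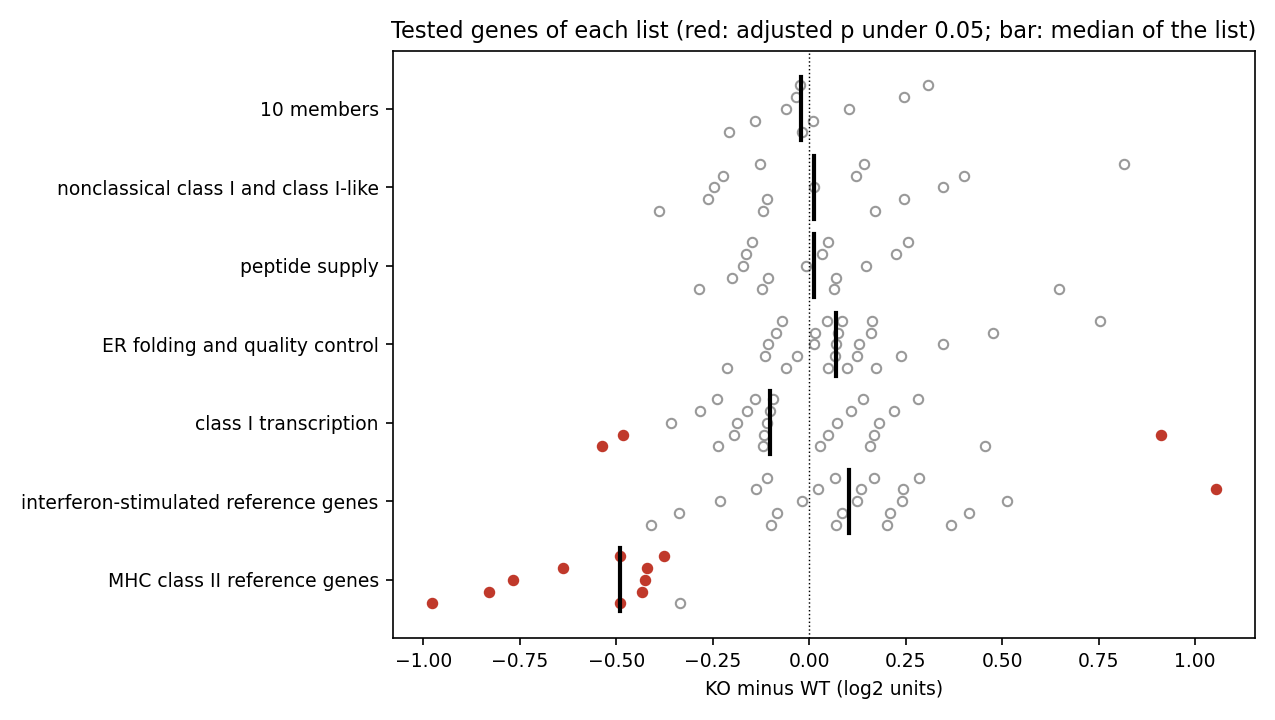
KO minus WT in log2 units for each tested gene of the lists, red where the adjusted p was under 0.05, with a bar at each list's median. The 10 class I genes are centred at -0.021, and the class II list at -0.49.

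H2-K1 had the largest absolute difference of the 10 genes. The tested genes with the most similar values over the 4 libraries, by summed absolute distance of log2 values centred on each gene's mean, were Pecam1 (distance 0.022), Tle3 (0.039) and Nr3c1 (0.047). Pecam1, the adhesion molecule CD31, was at 12.21 and 12.07 in KO, against 11.76 and 11.88 in WT. A distance below 0.2 was reached by 241 of 11863 genes, so this pattern of 4 values is common.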

How the data were processed

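Total RNA of sorted mouse splenic dendritic cells was made into strand-preserving libraries by a low-input protocol, per the labels' protocols. The authors deposited log2 values for 17300 genes, already scaled between libraries. The tools Salmon 1.10.1 and DESeq2 and the build GRCm39 are named without their roles, per the submitters' processing notes, and the annotation is not given in the sources used here. All libraries share the lowest value, 8.04, and low values are compressed, as in a variance-stabilizing transform. Undoing it from that value alone gave normalized counts, which summed to between 29002408 and 30952251 per library. These sums come after scaling, so read depth is unknown and no counting interval is given.

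Symbols came from GENCODE M21 (17289 of 17300 identifiers matched). KO columns were taken only as the KO group. A gene was tested if its mean exceeded the lowest value by 1 log2 unit or more. KO and WT were compared in limma 3.58.1 (R 4.3.3) with an intensity trend, two-sided, at an adjusted p of 0.05. Checks on simulated data preceded the fit. Transcript lengths (longest principal transcript) and 31-base words came from GENCODE M21 and motifs were searched in Python 3.11.15 with Biopython 1.88. The members and lists were chosen with earlier results of these data known. Named genes were the 10 members, up to 6 called genes per list and the 2 most abundant others, and exceptions are marked in the text; 1 gene this rule names is not reported here, and class II genes are given mostly as counts. Of 95 listed pathway genes 7 symbols were not matched in the table and 5 were below the filter. Alternatives were other filters, 2 other scalings, no trend, log2 of the count plus 1 and leaving out each library.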

Additional observations from a re-analysis of the deposited data

How the results depend on the processing

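None of the 10 genes passed the threshold in limma under any of the 10 alternatives (3 had an unadjusted p under 0.05 with all libraries, and 0 to 3 under the alternatives). Of 100 pairs of gene and alternative 89 kept their direction and 11 turned it, all in genes with differences of 0.10 or less. Tapbpl was at -0.019 with quantile normalization and -0.013 with median centring. Leaving out each library in turn gave -0.042 to 0.25 for B2m, -0.12 to 0.083 for Calr, -0.17 to 0.10 for Nlrc5, -0.24 to 0.12 for Pdia3, -0.14 to 0.092 for Tapbp and -0.065 to 0.086 for Tapbpl. It gave 0.24 to 0.38 for H2-K1, 0.20 to 0.29 for H2-D1, -0.26 to -0.018 for Tap1 and -0.25 to -0.16 for Tap2. The within-library ratios ran from -0.14 to 0.011 for H2-D1 to H2-K1, -0.18 to 0.049 for Tap2 to Tap1, -0.019 to 0.087 for Tapbpl to Tapbp and -0.12 to 0.035 for Pdia3 to Calr. Over all genes 0 to 820 passed, and 0 to 7 over the 4 class I pathway lists. The cause was not tested. A group left with 1 library is assumed to vary like the other. With 4 libraries differences as small as those of the heavy chains may go undetected. No paired analysis was possible because the labels pair no KO sample with a WT sample. The KO columns also carry no replicate number of the labels.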

Other observations

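Some class I-like genes at the edges of the family, chosen after their values were seen, had wider differences than the classical chains. H2-Q10, known in mouse as a secreted class I molecule made mainly in liver, was at 10.62 (KO A) and 11.30 (KO B), against 10.04 (WT 1) and 10.25 (WT 2) (difference 0.82, adjusted p = 0.0768 in limma). Of its 31-base words 18.6% occurred in other genes. H2-M2, a nonclassical heavy chain gene, was at 9.79 (KO A) and 9.87 (KO B), against 10.27 (WT 1) and 10.17 (WT 2) (difference -0.39, adjusted p = 0.0574 in limma). Syvn1, a ubiquitin ligase of endoplasmic reticulum quality control, was at 10.84 and 10.83 in KO, against 10.45 and 10.53 in WT (difference 0.35, adjusted p = 0.0642 in limma). None of these passed the threshold.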
